A study of Capra hircus with 8 samples.

Results

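Gene expression was followed in the skin of cashmere goats over months 3, 6, 9 and 12, with 1 RNA-sequencing library per month. These are 4 of the 8 libraries of the series, and the other 4 are skin of milk goats in the same months. They were chosen by the labels alone, as the cashmere goat libraries of the count table, and no measured value entered the choice. The main comparison set months 6 and 9 against months 3 and 12, which gives 2 libraries against 2, and beside it each gene was described by the month in which it was highest and by its fold range, the ratio of its highest to its lowest month. The labels name no genotype, strain, treatment or sex, and the groups share tissue, extraction and library protocol. The month stands in the age field of the labels, whereas the design text calls it a month, so months of the year and months of life cannot be told apart. They do not say how many animals a library holds, and the protocol mentions embryos although skin is the labelled tissue. The 2 libraries of a group come from different months, so the spread within a group holds the difference between its months, and each p-value reflects no more than the scatter of these libraries.

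Hair grows in cycles. In growth (anagen) the matrix cells at the base of the follicle divide and give rise to the shaft and to the inner root sheath that moulds it. The follicle then regresses (catagen) and rests (telogen). The shaft is built of hair keratins, which form filaments, and of keratin-associated proteins (KAPs), which cross-link them, while trichohyalin (TCHH) hardens the inner root sheath. In cashmere goats the coarse guard hair comes from primary follicles and the fine undercoat from secondary follicles, whose growth is known to follow day length. The follicles stand in a dermis of collagen made by fibroblasts.

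The cashmere libraries held 7480053 to 8718429 reads over 18815 genes, of which 13894 were tested. Levels are given as counts per 1000000 reads (CPM) after scaling by TMM, a method that sets the bulk of genes level between libraries. The TMM factors lay between 0.968 and 1.08, the latter in month 3. A count of 0 allows up to 3 reads, which is 0.351 to 0.411 CPM. The library's tissue label was met by its markers: the genes with the most reads were TCHH, KRT5 (basal epidermis), DSP (desmosomes), KRT10 and KRT1 (both of the differentiating epidermis). KRT5 lay between 7358 and 10139 CPM and KRT10 between 5427 and 9531 CPM over the 4 months.

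The 4 marker genes each followed another course. KAP8, a glycine- and tyrosine-rich KAP of the shaft, stood at 35 CPM in month 3, 68.5 in month 6, 809 in month 9 and 423 in month 12. Months 9 and 12 were thus high together, and months 6 and 9 against 3 and 12 differed by 0.94 ± 1.33 (log2 fold change ± SE; edgeR adjusted p = 0.957). TCHH stood at 19428 CPM in month 3, 48604 in month 6, 49982 in month 9 and 68131 in month 12. Month 3 was the low month, and the groups overlapped, with a difference of 0.17 ± 0.66 (edgeR adjusted p = 0.982). COL1A1, a chain of type I collagen, stood at 3861 CPM in month 3, 18705 in month 6, 2040.2 in month 9 and 766 in month 12. It was high in month 6 alone, and its difference of 2.16 ± 1.15 did not pass (edgeR adjusted p = 0.936). PENK, which encodes the precursor of the enkephalin peptides, stood at 46.8 CPM in month 3, 21.1 in month 6, 15.6 in month 9 and 39.5 in month 12. Both low months were 6 and 9, so the groups did not overlap, but the difference of -1.24 ± 0.22 did not pass over all genes (edgeR adjusted p = 0.936). For the other 3 genes 1 library set the sign: KAP8 gave -1.74 without month 9, TCHH -0.47 without month 3 and COL1A1 -0.18 without month 6.

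**Figure D1:**
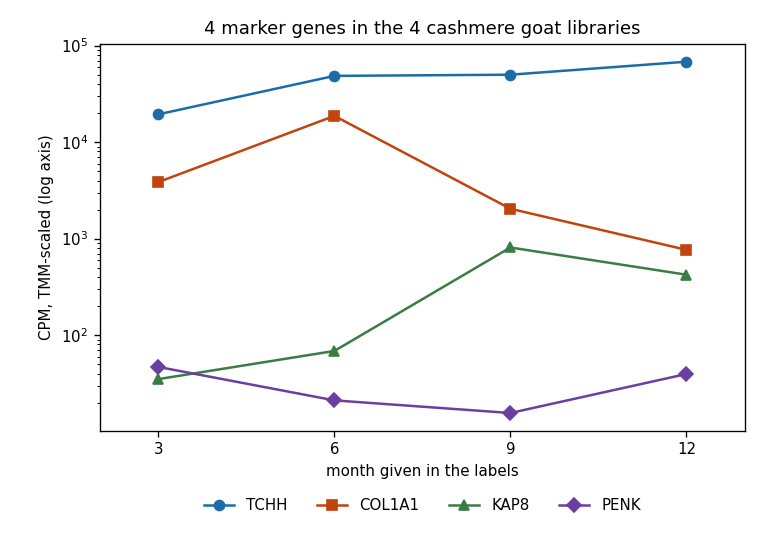
CPM (log axis) of the 4 marker genes by month, 1 cashmere goat library per point, with lines joining the months of a gene. COL1A1 is highest in month 6 (18705 CPM), KAP8 in month 9 (809), TCHH in month 12 (68131) and PENK in month 3 (46.8).

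Shaft keratins, KAPs, inner root sheath genes and dividing-cell genes were all low in month 3, but they did not share a peak. None of these or of the other genes passed edgeR's test of months 6 and 9 against 3 and 12, which is the test meant below where no other is named. In a bulk sample such as skin, fewer cells of a type and less RNA per cell cannot be told apart. With edgeR, 0 of 13894 genes passed at an adjusted p under 0.05, a background of 0%, and the smallest adjusted p was 0.287. An unadjusted p under 0.05 was reached by 629 genes, 308 of them higher and 321 lower in months 6 and 9, where 694.7 would be reached by chance. DESeq2, another count model, passed 43 genes, 37 higher and 6 lower. Of these, 22 lie in the 4 KAP gene neighbourhoods described below, which hold 39, 8, 3 and 13 of the tested genes. Those neighbourhoods were chosen after values had been seen, so the 22 are a description. Among members of the gene lists, DESeq2 passed KRT38, KRT40, KLK5 and PENK. With edgeR, 36 genes passed without the library of month 12, 16 without month 3 and 3 without month 9. Scaled to library totals instead of TMM, 0 genes passed and 688 had an unadjusted p under 0.05, 217 of them higher. Both of months 6 and 9 were above both of months 3 and 12 in 17.2% of tested genes, and both were below in 17.4%.

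By peak month, 32% of tested genes were highest in month 3, 20.6% in month 6, 23.9% in month 9 and 23.5% in month 12. The median fold range over the 4 months was 1.46, with quartiles of 1.27 and 1.81. A fold range of at least 4 was found in 405 genes, or 2.91%. By lowest month, 4400 genes were lowest in month 3, 2656 in month 6, 3445 in month 9 and 3393 in month 12. The course of each gene list below is to be read against these shares.

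Of 18 shaft keratins listed, 8 are in the first table by symbol. All 8 were lowest in month 3, and 5 were highest in month 6, 2 in month 9 and 1 in month 12. In 5 of them months 6 and 9 were both above months 3 and 12, against 17.2% of all tested genes. Their median log2 fold change was 0.77, against -0.002 over all genes tested. None passed edgeR's test, and DESeq2 passed KRT38 (adjusted p = 0.0415) and KRT40 (adjusted p = 0.0387). The median was 1.41 without the library of month 12 and 0.50 without that of month 3. KRT35, a keratin of the early cortex and cuticle, stood at 368 CPM in month 3, 715 in month 6, 903 in month 9 and 723 in month 12. KRT39, a late cuticle and cortex keratin, stood at 87.0 CPM in month 3, 164 in month 6, 215 in month 9 and 164 in month 12. Both were lowest in month 3 and highest in month 9, with month 12 at the level of month 6. KRT32, a cuticle keratin, was among the 5 highest in month 6, at 91.8, 257, 217 and 155 CPM in months 3, 6, 9 and 12. KRT38 had the widest course of the list, with 1.68 CPM in month 3, 167 in month 6, 26.8 in month 9 and 4.53 in month 12. Its month 6 value was 6.23-fold that of month 9 (95% interval 5.41 to 7.20, counting error only). In the second count table, whose gene set differs, keratin 38 stood at 51.9, 771, 162 and 71.1 CPM, with the same peak month and a narrower course. The 8 keratins of the first table together took 0.0885% of reads in month 3, 0.206% in month 6, 0.1997% in month 9 and 0.157% in month 12. The exact permutation test of the shares of 2 months against 2 gave p = 0.333, the smallest it can give. The 17 shaft keratin genes of the second table summed to 14225 CPM in month 3, 29045 in month 6, 35524 in month 9 and 23673 in month 12. There 11 of the 17 were highest in month 9 and 6 in month 6.

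The 4 KAP genes that the table names by symbol were all lowest in month 3 and all highest in month 9. KRTAP11-1 stood at 464 CPM in month 3, 710.2 in month 6, 1691 in month 9 and 968 in month 12. KRTAP3-1 stood at 299.8 CPM in month 3, 631 in month 6, 1175 in month 9 and 645 in month 12. In both genes month 9 stood apart, and month 12 was no lower than month 6. KRTAP15-1 was the named gene with the highest ratio of month 9 to the next month, 2.70 (95% interval 2.43 to 3.00), at 8.87 CPM in month 3, 62.6 in month 6, 177 in month 9 and 65.7 in month 12. Their median log2 fold change was 0.94, and 0 passed the test. It was 2.63 without the library of month 12, 1.57 without month 6, 0.39 without month 3 and 0.20 without month 9. KAP genes of a family are near-identical copies, so reads could be split between them by the authors' counting.

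KAP genes without a name in this table were reached through their place in the genome. Between KRT40 and KRT38, the region that holds type I hair keratin and KAP genes, 39 genes were tested, and 34 were highest in month 9. Months 6 and 9 were both above months 3 and 12 in 33 of the 39, against 17.2% of all tested genes. Together they took 0.818% of reads in month 3, 1.60% in month 6, 2.43% in month 9 and 1.36% in month 12. Between TSPEAR and UBE2G2, all 8 genes tested had months 6 and 9 above months 3 and 12. Between TMPRSS2 and RIPK4, the same held for all 3 genes tested. Between TIAM1 and CLDN8, 13 genes including KAP8, KRTAP11-1 and KRTAP15-1 were tested. There it held for 3, or 23.1%, which is near the share of all tested genes. All 13 were lowest in month 3, and 10 were highest in month 9. These neighbourhoods were chosen after values had been seen, so their counts are a description. Their gene order came from a goat assembly that may not be the one behind the counts.

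The neighbourhoods differed in how months 9 and 12 compared with month 6. Between TIAM1 and CLDN8 the median gene was 2.83-fold higher in month 9 than in month 6 (range 0.982 to 11.8), and 10 of 13 genes were higher in month 12 than in month 6. Between TSPEAR and UBE2G2 the median ratio of month 9 to month 6 was 0.966 (range 0.870 to 1.20), and 0 of 8 genes were higher in month 12 than in month 6. Between KRT40 and KRT38 the median ratio was 1.37, and 6 of 39 genes were higher in month 12. LOC100861181, the neighbour of KAP8, shows the first pattern, with 127 CPM in month 3, 286 in month 6, 2405 in month 9 and 1387 in month 12. LOC102176161, next to KRT38, shows the opposite one, with 1.92 CPM in month 3, 308 in month 6, 39.4 in month 9 and 4.11 in month 12.

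**Figure D2:**
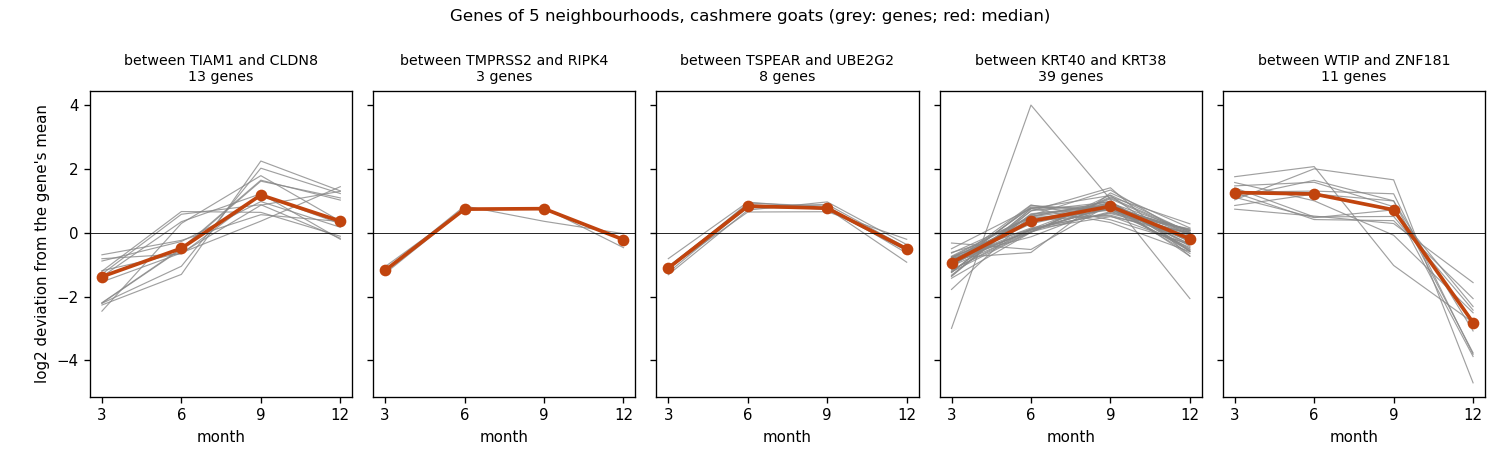
Log2 deviation of each tested gene from its own mean over the 4 cashmere goat libraries (log2 of CPM plus 0.5), by month, in 5 neighbourhoods. Grey lines are genes and the red line is their median. The 13 genes between TIAM1 and CLDN8 peak mostly in month 9, the 8 between TSPEAR and UBE2G2 are level over months 6 and 9, and all 11 between WTIP and ZNF181 are lowest in month 12.

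The second count table, made from the same libraries with another gene set, names KAP genes by the product of a matched sheep gene. Of 27 genes of KAPs and high-sulphur matrix proteins tested there, 25 were highest in month 9 and 2 in month 6, and 0 passed the test. KAP6, another family rich in glycine and tyrosine, stood at 65.6 CPM in month 3, 201 in month 6, 1011 in month 9 and 674 in month 12. KAP7, of the same class, stood at 16.8, 48.6, 437 and 194 CPM in those months. Month 12 was thus above month 6 in both, at ratios of 3.36 and 3.99. The 4 KAP10 genes, which are rich in cysteine, summed to 81.5 CPM in month 3, 343 in month 6, 336 in month 9 and 111 in month 12. The 2 KAP12 genes summed to 61.4, 253, 271 and 120.2 CPM. In these 2 families month 12 was below month 6, with ratios of 0.322 and 0.475. By summed CPM it was also below in KAP16 (0.435), KAP26 (0.510), KAP4 (0.517), KAP9 (0.537) and KAP24 (0.562). The ratio of month 12 to month 6 was 0.803 for the high-sulphur matrix proteins and 0.989 for KAP15. It was 1.01 for KAP3, 1.30 for KAP11 and 1.47 for KAP27, and 0.699 to 1.95 among the 3 KAP13 genes. In all, 7 of the 27 genes were higher in month 12 than in month 6.

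Inner root sheath genes were low in month 3, and their high values were spread over months 9 and 12. Of 10 tested, 9 were lowest in month 3, 5 were highest in month 9 and 4 in month 12. KRT25, a keratin of the inner root sheath, stood at 1954 CPM in month 3, 3890.1 in month 6, 4469 in month 9 and 4507 in month 12. TCHHL1, a relative of trichohyalin, was the named gene furthest below its other months in month 3, at 82.95 CPM against 884 in month 6, 1217 in month 9 and 886 in month 12. LOXL4, a lysyl oxidase, went another way, from 11.5 CPM in month 3 through 8.88 and 3.98 to 2.47 in month 12. With TCHH the list took 2.52% of reads in month 3, 5.57% in month 6, 5.94% in month 9 and 7.61% in month 12. TCHH alone held 162074 of the list's 194956 reads in month 3 and 496797 of 568938 in month 12. The share thus mostly follows that gene. The exact permutation test over the shares gave p = 1. The list's median log2 fold change was 0.43 with 0 past the test, 1.28 without month 12 and -0.035 without month 3.

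All 37 genes of cell division were lowest in month 3, and 20 were highest in month 12 and 13 in month 9. MKI67, the proliferation antigen, stood at 133 CPM in month 3, 242 in month 6, 227 in month 9 and 318 in month 12. TOP2A, a topoisomerase of dividing cells, stood at 98.1 CPM in month 3, 168 in month 6, 234 in month 9 and 237 in month 12. CENPE, a motor of the kinetochore, had the widest fold range of the list, 3.55, with 12.9 and 17.6 CPM in months 3 and 6 and 40.3 and 45.9 in months 9 and 12. The list's median log2 fold change for months 6 and 9 was 0.26 with 0 past the test, and month 12 was not low. It was 0.81 without the library of month 12 and -0.14 without that of month 3.

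Of 35 regulators of matrix and cortex tested, 24 were lowest in month 3 and 18 highest in month 9, and the median log2 fold change was 0.32, with 0 past the test. That median was 0.74 without month 12 and -0.009 without month 3. SHH, the growth-phase signal of the matrix, stood at 3.60 CPM in month 3, 9.64 in month 6, 14.4 in month 9 and 11.1 in month 12. FOXN1, a transcription factor of hair keratin synthesis, stood at 149.96 CPM in month 3, 246 in month 6, 400.1 in month 9 and 301 in month 12. HOXC13, another such factor, stood at 78.3, 150, 197 and 135 CPM. These 3 genes were lowest in month 3 and highest in month 9, with differences that did not pass. PRR9, a proline-rich protein, was the list's gene with the most reads, at 826 CPM in month 3, 1805 in month 6, 2979 in month 9 and 2432 in month 12.

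Signals around the follicle were taken next. Of 18 Wnt inhibitors and feedback genes tested, 9 were highest in month 6. Both of months 6 and 9 were above months 3 and 12 in 7 of the 18, against 17.2% of all tested genes. The median log2 fold change was 0.32, with 0 past the test. WIF1, a secreted Wnt inhibitor of the dermal papilla, stood at 7.91 CPM in month 3, 20.2 in month 6, 16.3 in month 9 and 9.33 in month 12. SFRP1, another secreted inhibitor, stood at 349 CPM in month 3, 637 in month 6, 602 in month 9 and 523 in month 12. Both were lowest in month 3, and WIF1 was nearly as low in month 12. Of 24 dermal papilla genes, 10 were highest in month 3 and 12 lowest in month 12, with a median of 0.12. The 16 resting and regression signals had a median of -0.08. Of these, FGF18, which holds follicles at rest, stood at 8.15, 10.2, 14.9 and 11.2 CPM. The outer root sheath and stem cell list had a median of 0.10, with LGR5, a stem cell receptor, at 103 CPM in month 3, 159.5 in month 6, 162 in month 9 and 145 in month 12.

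**Figure D3:**
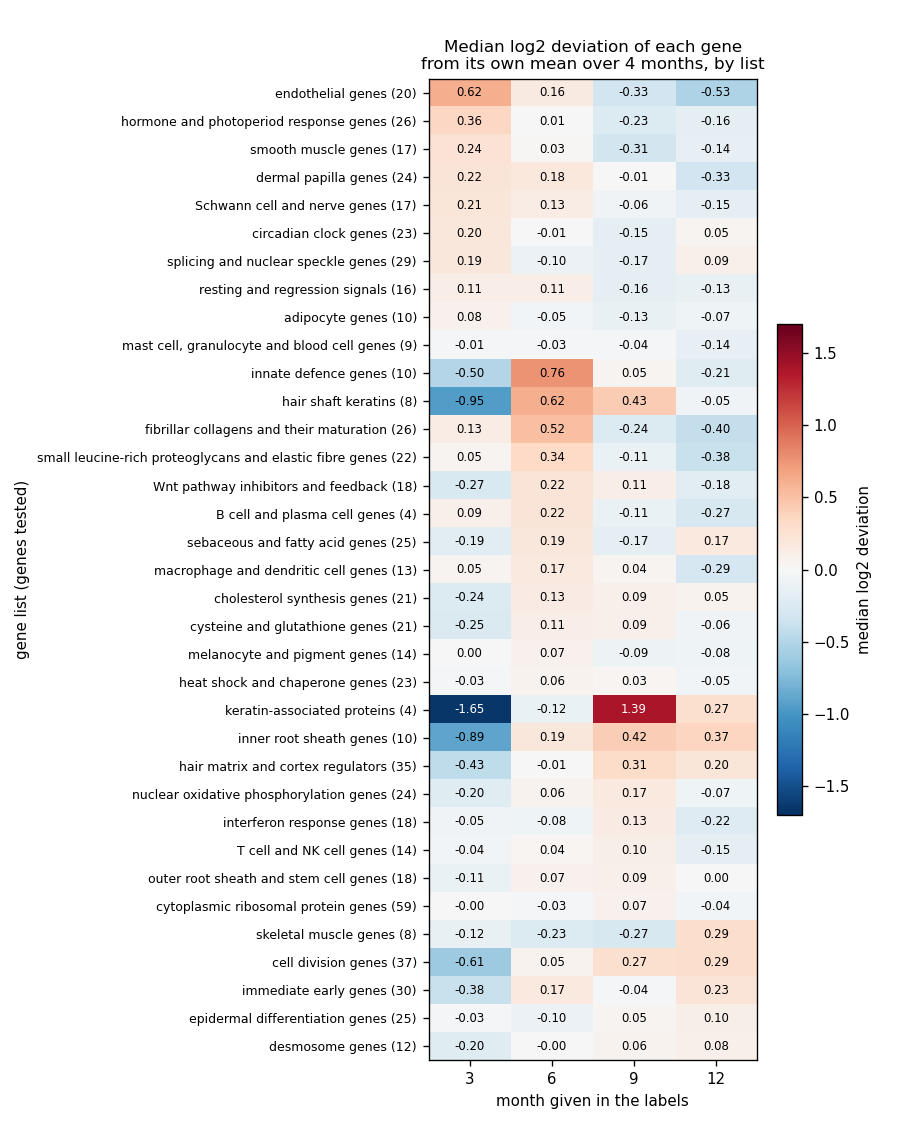
Median log2 deviation of the tested genes of 35 lists from each gene's own mean over the 4 cashmere goat libraries (columns: months; number of genes in brackets; log2 of CPM plus 0.5). KAPs run from -1.65 in month 3 to 1.39 in month 9, fibrillar collagens are highest in month 6 (0.52), and endothelial genes run from 0.62 in month 3 to -0.53 in month 12.

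Collagen genes were high in month 6. Of 26 genes of fibrillar collagens and their maturation, 19 were highest in month 6 and 6 were at least 2-fold above every other month, against 0.59% of all tested genes. COL1A2, the other chain of type I collagen, stood at 1571 CPM in month 3, 8216 in month 6, 1097 in month 9 and 378 in month 12. Its month 6 value was 5.23-fold that of month 3 (95% interval 5.13 to 5.33, counting error only). COL3A1, type III collagen, stood at 1846 CPM in month 3, 6771 in month 6, 1048 in month 9 and 425 in month 12. SPARC, a collagen-binding matrix protein, stood at 1055, 3682, 1327 and 972 CPM. In each of these month 6 was highest and month 12 lowest. The list took 1.20% of reads in month 3, 3.96% in month 6, 0.745% in month 9 and 0.432% in month 12. In month 6 COL1A1, COL1A2 and COL3A1 held 147406, 64745 and 53359 of the list's 323239 reads, so the share mostly follows them. The exact permutation test over the shares gave p = 0.667. The median fold range of the list's genes was 2.07. The list's median log2 fold change was 0.40 with 0 past the test, and -0.13 without the library of month 6.

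Other matrix genes followed in part. Of 22 small leucine-rich proteoglycans and elastic fibre genes, 12 were highest in month 6 and 13 lowest in month 12. Their share of all reads was highest in month 3 instead, at 0.577%, 0.433%, 0.367% and 0.345% in months 3, 6, 9 and 12. ELN, elastin, stood at 73.1 CPM in month 3, 159.6 in month 6, 69.96 in month 9 and 33.7 in month 12. ASPN, asporin, stood at 44.6, 123, 40.4 and 23.9 CPM. DCN, decorin, a proteoglycan of mature collagen fibrils, instead stood at 1147 CPM in month 3, 834 in month 6, 597 in month 9 and 485 in month 12, without a peak in month 6. CTHRC1, a secreted protein with collagen repeats, was at 15.1 CPM in month 6 and at 1.51 to 2.04 in the other months. C1QTNF6 was at 53.3 CPM in month 6 and at 0.960 to 10.2 in the others. C1QTNF3, of the same family of collagen-like proteins, stood at 7.07, 22.7, 14.6 and 7.13 CPM, with months 6 and 9 both above the others.

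Markers of other cells in skin differed between the libraries to unlike degrees. From lowest to highest month the share of reads rose 2.66-fold for endothelial genes. For Schwann cell and nerve genes it was 1.21-fold, and for melanocyte and pigment genes 1.13-fold. Endothelial genes were highest in month 3 in 19 of 20 cases, against 32% of all tested genes, and took 0.113% of reads in month 3, 0.0736% in month 6, 0.0502% in month 9 and 0.0423% in month 12. PECAM1, an adhesion molecule of vessel walls, stood at 231 CPM in month 3, 142 in month 6, 90.9 in month 9 and 70.1 in month 12. VWF, a clotting factor carrier, stood at 180.2, 137, 103 and 82.8 CPM. The list's median log2 fold change was -0.28, and 0.53 without the library of month 3. Smooth muscle genes took 0.600% of reads in month 3 and 0.381% to 0.452% in the other months, with all 17 genes tested. Skeletal muscle genes took 0.00658% to 0.0116%, with 24 genes listed, 20 in the table and 8 tested, and with MB, MYLPF, MYOT, XIRP2, CASQ1 and MYL1 at 0 reads in at least 1 month. Adipocyte genes took 0.0259% to 0.0366%, and LEP was at 0 reads in all 4 libraries. The part of these cells in the courses of hair and collagen genes was not tested.

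Immune markers were low. T cell and NK cell genes took 0.0342% to 0.0373% of reads, and GZMA was at 0 reads in all 4 libraries. Macrophage and dendritic cell genes took 0.0351% to 0.0507%, with the high values in months 6 and 9. Innate defence genes had a median log2 fold change of 0.71 over 10 genes, with 0 past the test. In 4 of the 10 month 6 was at least 2-fold above every other month, against 0.59% of all tested genes. S100A7A, an antimicrobial S100 protein of keratinocytes, stood at 4.44 CPM in month 3, 81.2 in month 6, 21.6 in month 9 and 0 in month 12, which allows up to 0.411. S100A8, a calgranulin subunit, stood at 1.68, 17.9, 3.05 and 1.78 CPM. Both were high in month 6, and LCN2, a lipocalin, was instead high in months 9 and 12, at 32.5 and 22.2 CPM against 1.92 and 1.90 in months 3 and 6.

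The 20 genes named for months 6 and 9 against 3 and 12 had groups that did not overlap, and none passed edgeR's test. DESeq2 passed 9 of them: KRT4, KLK6, KLK5, KLK12, KRT38, KRT40, AQP5, ZBTB16 and PENK. KRT4, a keratin of moist epithelia, came nearest, with 1.80 CPM in month 3, 24.5 in month 6, 19.0 in month 9 and 1.92 in month 12. It was 11.6-fold higher in months 6 and 9 (log2 fold change 3.54 ± 0.30, edgeR adjusted p = 0.287), and it passed in edgeR without a filter on low counts (adjusted p = 0.0331), without month 3 (0.0319) and without month 12 (0.0275), and in DESeq2 (9.8e-11). In the second count table its log2 fold change was 1.49 and did not pass (edgeR adjusted p = 0.409). The 3 kallikrein proteases KLK5, KLK6 and KLK12 lay together, of which KLK5 acts in the shedding of the outer epidermis. KLK6 stood at 40.5 CPM in month 3, 89.2 in month 6, 96.8 in month 9 and 32.8 in month 12. KLK5 stood at 49.9, 105, 103 and 54.2 CPM, and KLK12 at 26.6, 67.8, 62.5 and 35.2 CPM. The 3 differences were 1.34 ± 0.18, 1.0 ± 0.15 and 1.08 ± 0.19 on the log2 scale, with edgeR adjusted p of 0.608, 0.770 and 0.936. In the second count table KLK12 differed by 0.11.

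AQP5, a water channel of sweat and other glands, stood at 2.88 CPM in month 3, 24.5 in month 6, 15.6 in month 9 and 6.86 in month 12. GYG1, the primer of glycogen synthesis, stood at 29.4, 60.9, 63.9 and 38.9 CPM, and GM2A, a lysosomal lipid-binding protein, at 55.6, 98.9, 100.4 and 64.7 CPM. KRT40, a late hair keratin of the cuticle, stood at 26.6, 92.5, 80.6 and 45.8 CPM. Among these 4 the widest difference between the group means was that of AQP5, 4.14-fold. Each had an edgeR adjusted p of 0.936.

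On the lower side, ZBTB16, a zinc-finger repressor, stood at 361 CPM in month 3, 85.3 in month 6, 86.4 in month 9 and 175 in month 12. Months 6 and 9 were alike, and the difference was -1.64 ± 0.35 (edgeR adjusted p = 0.936). IL17RE, a receptor for an epithelial interleukin 17, stood at 72.6 CPM in month 3, 39.1 in month 6, 37.0 in month 9 and 69.1 in month 12. INAFM1 stood at 155, 92.5, 91.8 and 148 CPM. LMOD1, a leiomodin of smooth muscle, stood at 52.5, 23.0, 24.5 and 39.4 CPM. The other 5 named on this side besides PENK were CROCC, a protein of the ciliary rootlet, RNPC3 of the minor spliceosome, SNAPC4 of snRNA transcription, GPRIN2 and HAUS5 of the mitotic spindle, with log2 differences between -1.08 and -0.62.

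**Figure D4:**
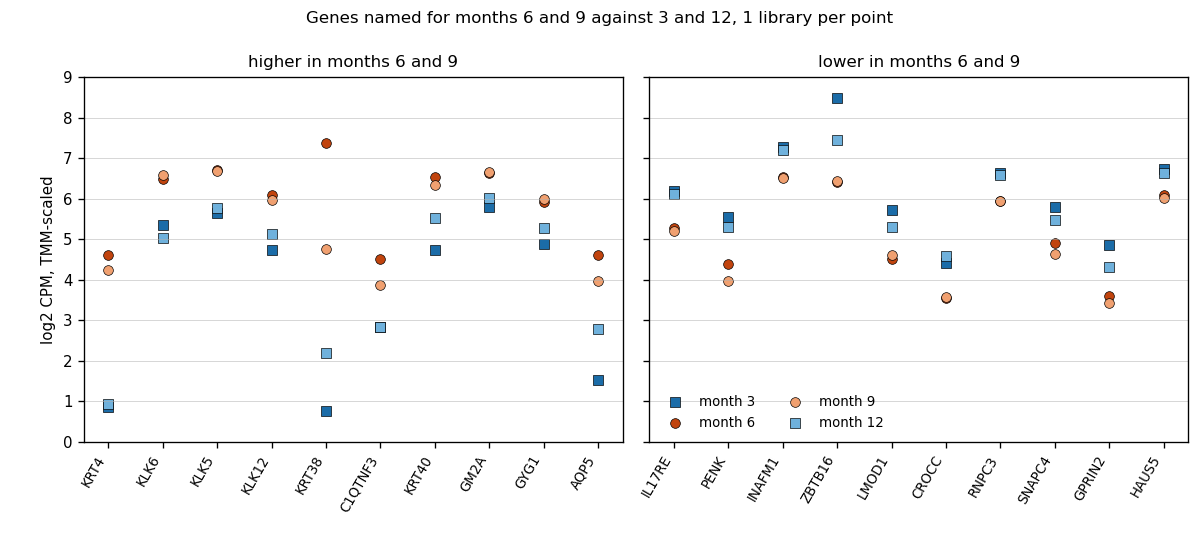
Log2 CPM of the 20 genes named for months 6 and 9 against 3 and 12, 1 cashmere goat library per point (circles: months 6 and 9; squares: months 3 and 12). The 2 kinds of symbol do not overlap for any gene shown, by the rule that chose them, and KRT38 has the widest span, from 1.68 to 167 CPM.

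Splicing genes had their low values in months 6 and 9. Of 29 genes of splicing and nuclear speckles, 22 had months 6 and 9 both below months 3 and 12, against 17.4% of all tested genes, and the median log2 fold change was -0.33, with 0 past the test. PNISR, a protein of nuclear speckles, stood at 624 CPM in month 3, 403 in month 6, 456 in month 9 and 602 in month 12. SRRM2, a scaffold of the speckle, stood at 823, 697, 511 and 648 CPM. Its month 6 lay above month 12, so it is not among the 22. The share of reads was 1.24% in month 3, 0.911% in month 6, 0.902% in month 9 and 1.13% in month 12 (exact permutation p = 0.333, the smallest possible). Genes of oxidative phosphorylation went the other way, with a median of 0.24. Of these, 14 of 24 were higher in both middle months, against 17.2% of all tested genes. Of 23 clock genes, 11 were lower in both middle months, against 17.4% of all tested genes, and the list's median was -0.21. Cholesterol synthesis genes were higher in both middle months in 11 of 21 cases, against 17.2% of all tested genes, with a median of 0.23. Ribosomal protein genes had a median of 0.05 over 59 genes.

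Immediate early genes, which are induced within minutes by handling and by growth signals alike, were lowest in month 3 in 22 of 30 cases and highest in month 12 in 16. FOS stood at 13.1 CPM in month 3, 95.0 in month 6, 36.6 in month 9 and 156 in month 12. FOSB stood at 4.32, 48.7, 16.2 and 53.5 CPM. Months 6 and 12 were high together, which is a split other than that of the comparison. Of 26 hormone and photoperiod response genes, 17 were highest in month 3. IGF1, the growth factor, stood at 155 CPM in month 3, 106 in month 6, 59.8 in month 9 and 54.2 in month 12, and PRLR, the prolactin receptor, at 305, 210.1, 197 and 206 CPM.

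Genes at least 2-fold above every other month numbered 99 in month 3 (0.713%), 82 in month 6, 12 in month 9 (0.0864%) and 22 in month 12 (0.158%). These counts move with the processing: month 3 had 182 with library totals and 158 with FPKM, and month 9 had 40 and month 12 had 34 by the second count table. With a mean of at least 50 reads they were 49, 52, 6 and 11 in months 3, 6, 9 and 12. In month 3 the highest ratios among named genes were those of GREB1, an oestrogen-responsive gene, at 4.90-fold its next month (95% interval 3.23 to 7.70), and of GALNT15, a mucin-type glycosyltransferase, at 4.49-fold (3.49 to 5.85). FOXI3, a transcription factor of hair and tooth placodes, stood at 37.8 CPM in month 3, 11.8 in month 6, 3.40 in month 9 and 4.25 in month 12. SCN9A, a sodium channel of sensory nerves, stood at 13.7, 2.41, 1.99 and 3.43 CPM. PTPRU and ATOH8 completed the set, with ratios of 3.43 and 2.95. All 6 were highest in month 3 by the rule that chose them. GALNT15 was lowest in month 6, and GREB1, SCN9A, PTPRU, FOXI3 and ATOH8 were lowest in month 9.

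In month 6 SLC35D3, a carrier protein known from platelet granules, stood at 41.2 CPM against 6.59 in month 3, 4.45 in month 9 and 0.274 in month 12. In month 9 ALDH1A2, which makes retinoic acid, stood at 22.7 CPM against 2.40, 5.08 and 9.87 in months 3, 6 and 12, and MEST, an imprinted gene of growing tissue, at 65.2 against 19.4, 23.5 and 31.95. KRT78 and IFI6 were near 2-fold above the next month, at ratios of 1.99 and 1.98. In month 12 AKR1D1, a steroid reductase, stood at 21.8 CPM against 2.64, 0.381 and 1.41. PLOD3, a collagen lysine hydroxylase, stood at 57.3 CPM against 13.5 to 17.8, and KRT2, a keratin of the upper epidermis, at 112 against 30.6 to 43.5. THRSP and FA2H, both of lipid synthesis, stood 2.48-fold and 2.26-fold above the next month, and RGN, a calcium-binding protein, 2.22-fold.

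Genes at most 0.5 times every other month numbered 191 in month 3 (1.37%), 38 in month 6 (0.273%), 50 in month 9 (0.36%) and 141 in month 12 (1.01%). By the second count table there were 97, 104 and 212 in months 6, 9 and 12, with library totals 124 in month 3, and with a mean of at least 50 reads 110, 5, 5 and 50 in months 3, 6, 9 and 12. The low genes of month 3 were TCHHL1, KRTAP15-1 and FOSB, given above, and HSD17B14, a steroid dehydrogenase, at 8.03 CPM against 25.6 to 33.1. In month 6 HOXD12 stood at 7.99 CPM against 18.4 to 38.2, and APOD, a lipocalin, at 234 against 462 to 582. CCDC34 and FAM81A completed that set. In month 9 HAP1 stood at 9.38 CPM against 16.8 to 26.01, and STARD9, LRRC45 and FBF1 were its companions. In month 12 CA4, a membrane carbonic anhydrase, stood at 3.15 CPM against 15.9 to 63.1, and NNAT, an imprinted proteolipid, at 12.6 against 53.1 to 140. CDO1, which oxidises cysteine, stood at 3.84 CPM against 13.8 to 16.8, and SPINK7 at 4.11 against 19.1 to 62.6.

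One stretch of the genome was low in month 12 as a block. All 11 tested genes between WTIP and ZNF181, none of which carries a name beyond its locus number, were at most 0.5 times every other month there. LOC102169125 stood at 1214 CPM in month 3, 1559 in month 6, 1340.4 in month 9 and 79.1 in month 12. The genes of the stretch together took 0.616% of reads in month 3, 0.444% in month 6, 0.376% in month 9 and 0.0376% in month 12. Their largest fold range was 230.1 and their smallest 5.24. In milk goats LOC102169125 was not low in month 12, at 299 CPM in month 3, 334 in month 6, 121 in month 9 and 350 in month 12, scaled over all 8 libraries. The stretch was singled out after its values had been seen, and copies within it may share reads.

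Milk goats were used only to ask whether the change from months 3 and 12 to months 6 and 9 was particular to the cashmere goats. It differed between the breeds in 0 of 14536 genes tested (0%) by edgeR's test of the breed difference of the change, while 492 had an unadjusted p under 0.05 and DESeq2 passed 100, 3 higher and 97 lower in cashmere goats. The median log2 fold change of shaft keratins was 0.78 in cashmere and 3.64 in milk goats in the fit of 8 libraries. For KAPs it was 0.96 and 3.98, for inner root sheath genes 0.44 and 3.08, and for cell division genes 0.27 and 1.02. All genes tested had medians of 0.01 and -0.03. TCHH stood at 8724 CPM in month 3, 56497 in month 6, 165712 in month 9 and 2458 in month 12 of the milk goats, so that month 12 was low there and high in cashmere goats. Its change differed by -4.14 ± 1.26 on the log2 scale (edgeR adjusted p = 0.916). KRT38 stood at 0.163, 13.93, 182 and 0.264 CPM in the milk goats, with its peak in month 9 where the cashmere goats had it in month 6. For fibrillar collagens the medians were 0.41 and 0.09, and COL1A1 was highest in month 3 of the milk goats, at 9921 CPM against 6073, 5149 and 538 in months 6, 9 and 12. For KRT4 the difference of the change was 3.92 ± 0.60 (edgeR adjusted p = 0.327), with 1.38 to 3.31 CPM in all 4 milk goat libraries.

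**Figure D5:**
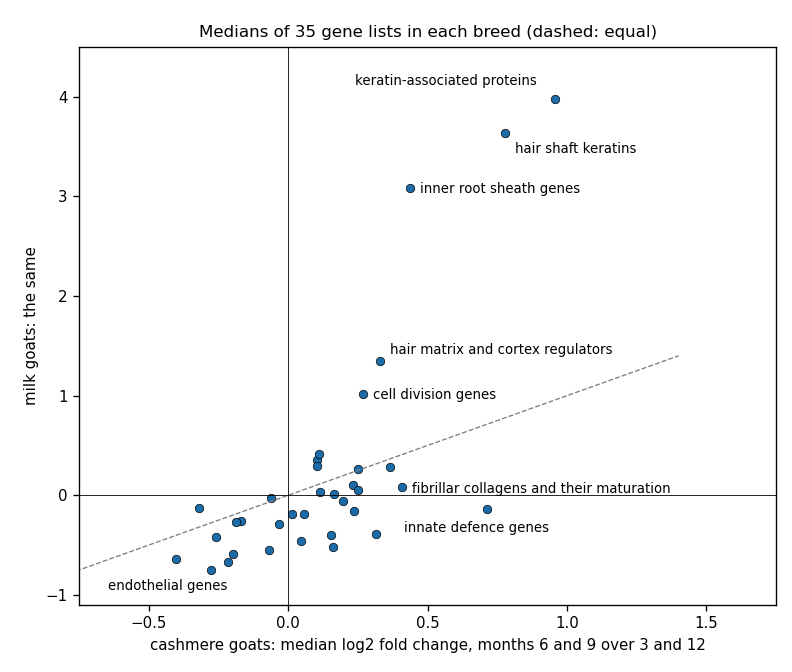
Median log2 fold change of 35 gene lists for months 6 and 9 over 3 and 12 in cashmere goats (x axis) and milk goats (y axis), from the fit of all 8 libraries, 1 point per list. Shaft keratins (0.78 and 3.64), KAPs (0.96 and 3.98) and inner root sheath genes (0.44 and 3.08) lie above the dashed line of equal values. The breed difference passed for 0 genes.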

How the data were processed

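RNA of goat skin was measured by directional paired-end sequencing after poly(A) selection, per the labels' protocols, in 8 libraries. The authors deposited raw read counts per gene (18815 genes), FPKM of the same genes, and raw counts for another set of 20780 genes. Bowtie2 is named without role or version, per the submitters' processing notes; no counting tool or build was named in the sources used here, so no coordinates are printed. The first table names cashmere goats by a transliterated word; each of 8 columns matched best its own column of the second table over 12931 shared symbols. Counts and FPKM kept 1 ratio within 0.0163% over 368 genes.

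Counts of the 4 cashmere libraries were filtered with filterByExpr, scaled by TMM and tested with edgeR 4.0.16 (quasi-likelihood, R 4.3.3; 2 residual degrees of freedom), with Benjamini-Hochberg adjustment at 0.05. The breed difference used all 8 libraries in 4 groups (4 residual degrees of freedom). The fit of the 4 cashmere libraries was run on simulated counts first. The simulation gave all genes the same dispersion and the months of a group the same mean, unlike these data. Ratio intervals between months are exact binomial ones (95%) and, like the floor of 3 reads, cover counting error only.

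Named genes, without LOC symbols, were the 10 per direction with the smallest unadjusted p among genes of at least 5 CPM whose groups do not overlap (none passed), per month the 6 with the highest ratio to the next month (at least 100 reads) and the 4 with the lowest ratio, the 2 most abundant of each list where named, the markers and the 5 most abundant genes. Further genes in the text were picked with their values known. Members and lists were chosen with earlier results of these data known. The gene order came from the RefSeq annotation of assembly ARS1.2, with 18805 of 18815 symbols found. Alternatives were RLE factors, library totals, TMM without hair genes, other filters, DESeq2 1.42.0, limma 3.58.1 on log2(FPKM + 1) or log2(FPKM + 0.1), the 8 libraries in 1 fit, the second table, and each library left out.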

Additional observations from a re-analysis of the deposited data

Results flagged for a closer look

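For 2 of the named genes every library of months 6 and 9 lay on one side of months 3 and 12 in the cashmere goats and on the other side in the milk goats. PENK was named by a rule that asked for cashmere groups without overlap, so its cashmere side was fixed beforehand. SPINK7 was named for a low month 12 in the cashmere goats, so month 12 below months 6 and 9 was fixed there too. How many of all genes show such opposite sides was not counted, so the 2 genes are a description. PENK stood at 44.6, 20.0, 15.2 and 37.95 CPM in months 3, 6, 9 and 12 of the cashmere goats, and at 6.26, 22.5, 56.3 and 18.7 CPM in the milk goats, all scaled over 8 libraries. The difference of the change, cashmere minus milk, was -2.89 on the log2 scale, and it did not pass edgeR's test (adjusted p = 0.723). SPINK7, a protease inhibitor of epithelia, stood at 18.2, 59.4, 35.5 and 3.95 CPM in the cashmere goats and at 28.3, 19.9, 10.5 and 23.5 CPM in the milk goats. Its difference was 2.85 and did not pass either (edgeR adjusted p = 0.855).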

How the results depend on the processing

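With 1 library per month, each value rests on single libraries. The count of genes past the test for months 6 and 9 was 0 by edgeR, 1 without a filter and 43 with DESeq2, and it ranged from 0 to 36 when 1 library was left out (16 without month 3, 3 without month 9, 36 without month 12). It was 0 under the other settings run. For the breed difference it was 0, with 100 by DESeq2 and a range of 0 to 2 when 1 library was left out (2 without month 6 of the milk goats). Scaling by library totals moved the median of all genes in that difference from 0.01 to 0.13. The months pair cashmere with milk goat libraries, and in the breed difference with month as a replicate block 2 genes passed, CHAC1 and LOC108633210. Within the cashmere goats alone no paired analysis was possible because months 6 and 9 and months 3 and 12 share no number. Left-out arms of 1 library are assumed to vary like the others.

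Genes 2-fold above every other month numbered 182 in month 3 with library totals, 158 with FPKM and 49 with a mean of at least 50 reads. With that filter they numbered 52, 6 and 11 in months 6, 9 and 12, and by the second count table there were 40 in month 9 and 34 in month 12. Genes at most 0.5 times every other month numbered 124 in month 3 with library totals. With the 50-read filter they numbered 110, 5, 5 and 50 in months 3, 6, 9 and 12, and by the second count table there were 97, 104 and 212 in months 6, 9 and 12.

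When 1 library was left out, list medians ranged from 0.50 to 1.41 for shaft keratins, 0.20 to 2.63 for KAPs, -0.035 to 1.28 for inner root sheath genes, -0.14 to 0.81 for cell division, -0.13 to 0.64 for collagens, -0.68 to 0.53 for endothelial genes and -0.35 to -0.26 for splicing genes. The splicing median was -0.41 with library totals, and its log2 share difference -0.39, or -0.31 on TMM-scaled totals. Of 313 values of 23 named genes, 310 kept their sign. The others were KAP8 without month 9 (-1.74, in a range up to 3.66), TCHH without month 3 (-0.47, up to 1.35) and COL1A1 without month 6 (-0.18, up to 3.75). The cause was not tested.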

Other observations

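Epidermal differentiation genes had a median fold range of 1.76 over the 4 months of the cashmere goats, against 1.46 over all genes tested. The 25 genes tested had a median log2 fold change of -0.07 for months 6 and 9, with 0 past the test. Single members moved apart: LOR, loricrin of the cornified envelope, stood at 934, 481, 449.9 and 484 CPM in months 3, 6, 9 and 12, and IVL, involucrin of the same envelope, at 379.99, 909, 910.2 and 1002 CPM. Month 3 was thus the high month for one and the low month for the other. The 25 sebaceous and fatty acid genes had a median of 0.04, and the 12 desmosome genes 0.10. Among cysteine and glutathione genes, GPX3, a secreted peroxidase, stood at 159.5, 44.8, 56.3 and 69.8 CPM, and GSR, glutathione reductase, at 14.5, 26.8, 50.5 and 36.3 CPM.

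Pigment genes were sparse. Of 19 in the table, 14 were tested, and TYR, TYRP1 and GPR143 were at 0 reads in at least 1 month. TRPM1, a melanocyte channel, stood at 3.96, 23.2, 5.63 and 2.47 CPM in months 3, 6, 9 and 12.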
